A study of Drosophila melanogaster with 2 samples.

Results

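The genes described here are the 10 genes CTCF, BEAF-32, su(Hw), Cp190, mod(mdg4), Chro, Dref, M1BP, Trl and Adf1, which encode insulator proteins and core promoter factors of Drosophila melanogaster. They are 10 of 13968 protein-coding genes on the chromosome arms. They were listed by name with earlier results of these data known, and were matched to the Ensembl annotation by symbol. Binding was measured by ChIP-seq of NFAT fused to enhanced green fluorescent protein (NFAT-eGFP) in whole embryos aged 0 to 24 h of the transgenic strain NFAT-GFP, with an antibody against GFP. There was 1 group of 2 biological replicates, and no control library, untagged strain or other stage is analysed here. Whole embryos of all stages were combined, so a peak is an average over all cell types and ages and does not say in which cells the protein was bound. The data are peak lists on the dm6 assembly: a larger list for both replicates together with 4899 peaks on the arms, a conservative version with 3909, and separate lists of 2236 peaks for replicate 1 and 3994 for replicate 2. All were thresholded by the authors on the irreproducible discovery rate (IDR), a measure of how poorly a peak's rank repeats. Each peak has a summit and a signal. No source used here gives the scale of the signal or the read depth, and signals and ranks are therefore compared only within 1 list.

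Insulators are DNA elements that separate neighbouring regulatory domains. In flies, CTCF, su(Hw) and BEAF-32 bind insulator DNA directly, while Cp190 and mod(mdg4) are BTB-domain cofactors that join them. Dref, M1BP, Trl and Adf1 bind sequence elements near transcription start sites (TSSs), and Chro is a chromodomain protein of open, interband chromatin.

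Sequences at some of the summits are shown first, read on the coding strand of each gene from the RefSeq Release 6 genome sequence. None is shown for BEAF-32, or for Adf1, which had the strongest summit of the members. Stretches of annotated UTR were limited to 30 bases, which is why the Chro sequence is short. Capitals mark 3 sets of letters, searched on both strands: TATCGATA, the DNA replication-related element (DRE) known to be bound by Dref; CGATA, the core known to be bound by BEAF-32, which TATCGATA holds once on each strand; and GAGAG, known to be bound by Trl. Within 50 bp of the summit, TATCGATA lay at 3.25%, CGATA at 20.7% and GAGAG at 14.1% of all peaks of the larger list. Some sequences shown reach past 50 bp, and within 100 bp the shares were 5.37%, 32.4% and 28.2%. Such matches are descriptions of the letters and not mapped sites.
Cp190, shared promoter with CG4338, chr3R:15275238-15275369, minus strand: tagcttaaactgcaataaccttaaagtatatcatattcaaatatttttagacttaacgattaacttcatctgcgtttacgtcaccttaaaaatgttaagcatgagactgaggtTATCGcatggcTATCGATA
Chro, 5' UTR, chr3L:22878871-22878898, minus strand: gcTATCGacaggcaatacactcccagta
Dref, shared promoter with RpL13, chr2L:9967242-9967342, minus strand: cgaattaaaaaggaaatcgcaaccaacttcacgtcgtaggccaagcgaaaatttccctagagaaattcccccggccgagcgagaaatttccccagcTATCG
CTCF, intron, chr3L:7356480-7356580, minus strand: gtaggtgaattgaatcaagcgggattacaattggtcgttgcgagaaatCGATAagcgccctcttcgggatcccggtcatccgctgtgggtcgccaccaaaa
CTCF, upstream summit at Sec63, chr3L:7360463-7360568, minus strand: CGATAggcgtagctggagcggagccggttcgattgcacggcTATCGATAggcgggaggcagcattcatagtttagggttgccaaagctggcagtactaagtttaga
M1BP, shared promoter with CG8202, chr3R:8732013-8732113, minus strand: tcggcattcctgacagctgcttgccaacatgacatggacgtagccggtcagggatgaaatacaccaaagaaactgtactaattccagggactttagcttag
Trl, intron, weaker summit, chr3L:14758190-14758290, minus strand: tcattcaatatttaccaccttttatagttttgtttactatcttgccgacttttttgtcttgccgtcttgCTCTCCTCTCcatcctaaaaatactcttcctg
Trl, intron, strongest summit, chr3L:14759436-14759536, minus strand: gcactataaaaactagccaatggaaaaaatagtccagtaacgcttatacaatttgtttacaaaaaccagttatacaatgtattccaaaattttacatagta
mod(mdg4), upstream summit at tin, chr3R:21378750-21378850, minus strand: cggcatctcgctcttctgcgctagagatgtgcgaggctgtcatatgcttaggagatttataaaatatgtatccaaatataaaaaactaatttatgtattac

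In the Cp190 sequence TATCGATA was centred 77.5 bp from the summit and 0.5 bp from the 5'-most TSS of the gene. In the Dref sequence CGATA was centred 51 bp from the summit, and in the CTCF intron it lay on the summit itself. In the upstream CTCF sequence TATCGATA was centred 10.5 bp from the summit. The Chro sequence held CGATA 21 bp from its summit, the weaker Trl summit had GAGAG at 21 bp and 26 bp, and the M1BP, mod(mdg4) and strongest Trl sequences held none of the 3. NFAT proteins are known to bind the core GGAAA, left in lower case above. TGGAAA, which contains it, was centred 27.5 bp from the strongest Trl summit, and GGAAA lay 6 bp, 34 bp and 41 bp from the Dref summit. None of the other summits shown had GGAAA within 50 bp. Of all peaks of the larger list, 26.4% had GGAAA and 11.1% had TGGAAA within 50 bp.

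A summit of the larger list lay in the gene body or within 5 kb of it for 9 of the 10 members, against 52.5% of all protein-coding genes. The one without was su(Hw). A summit within 1 kb of an own TSS was present at 8 of 10 members, against 26.6% of all genes, and here mod(mdg4) was also without one. The same 2 counts came from each other list. For the gene body or 5 kb, 9 members stood against 46.4% of all genes in the conservative list, 33.1% in replicate 1 and 47.5% in replicate 2. For 1 kb from a TSS, 8 members stood against 22.7% in the conservative list, 15% in replicate 1 and 24.2% in replicate 2. With 10 genes, chosen with earlier results of these data known, these are counts and not a test. Inside gene bodies alone, 6 members held a summit, against 13.9% of all genes, and in the body or 2 kb around it 9 did, against 39%. A window of 2 kb from a TSS took in mod(mdg4) and gave 9 members, against 31.7% of all genes, and the 5'-most TSS alone, within 1 kb, gave 7, against 24.8%.

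**Figure D1:**
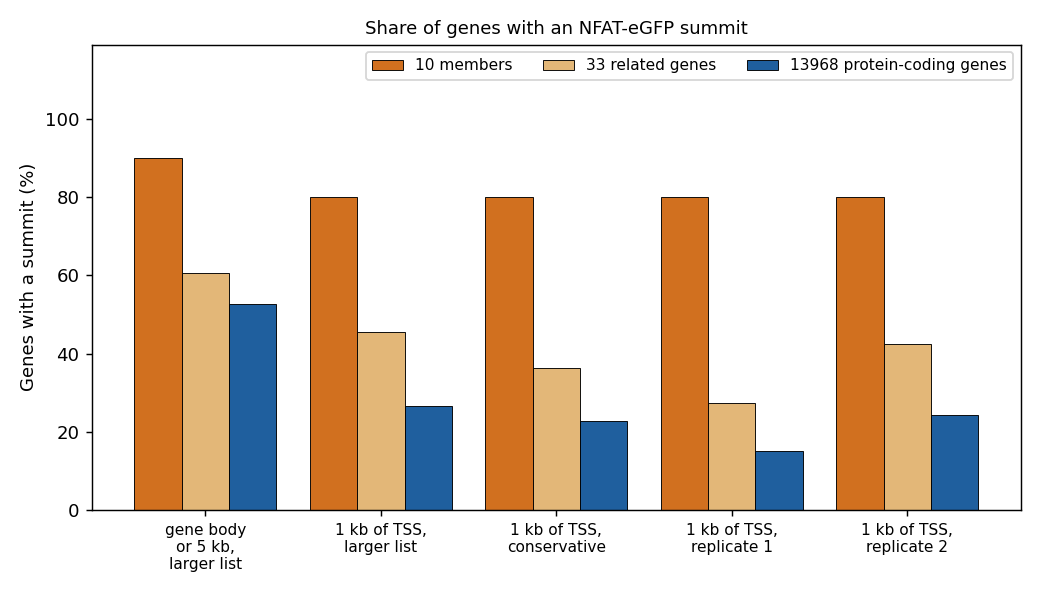
Share of genes with an NFAT-eGFP summit (y axis, %) for the 10 members (left bars), 33 related genes (middle bars) and 13968 protein-coding genes (right bars), by rule and peak list (x axis). The members stand at 90% or 80% in each list, while the bars of all genes lie between 15% and 52.5%.

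The members had 23 summits in the larger list, a median of 2.5 per gene against 1 over all protein-coding genes. Per 10 kb of gene and flanks this was 1.35 summits, against 0.585 over all genes. Trl had 5, mod(mdg4) had 4, CTCF, BEAF-32 and Adf1 had 3 each, Chro had 2, and Cp190, Dref and M1BP had 1 each. At least 3 summits were found at 5 of 10 members, against 11.9% of all genes, at least 4 at 2 members, against 4.83%, and at least 5 at 1 member, against 1.98%. Of the 23, 10 lay in introns, 2 in 5' UTRs, 1 in a coding exon and 10 outside the gene. These positions refer to the member gene alone, whatever other genes start there, and no share over all peaks is given for them.

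**Figure D2:**
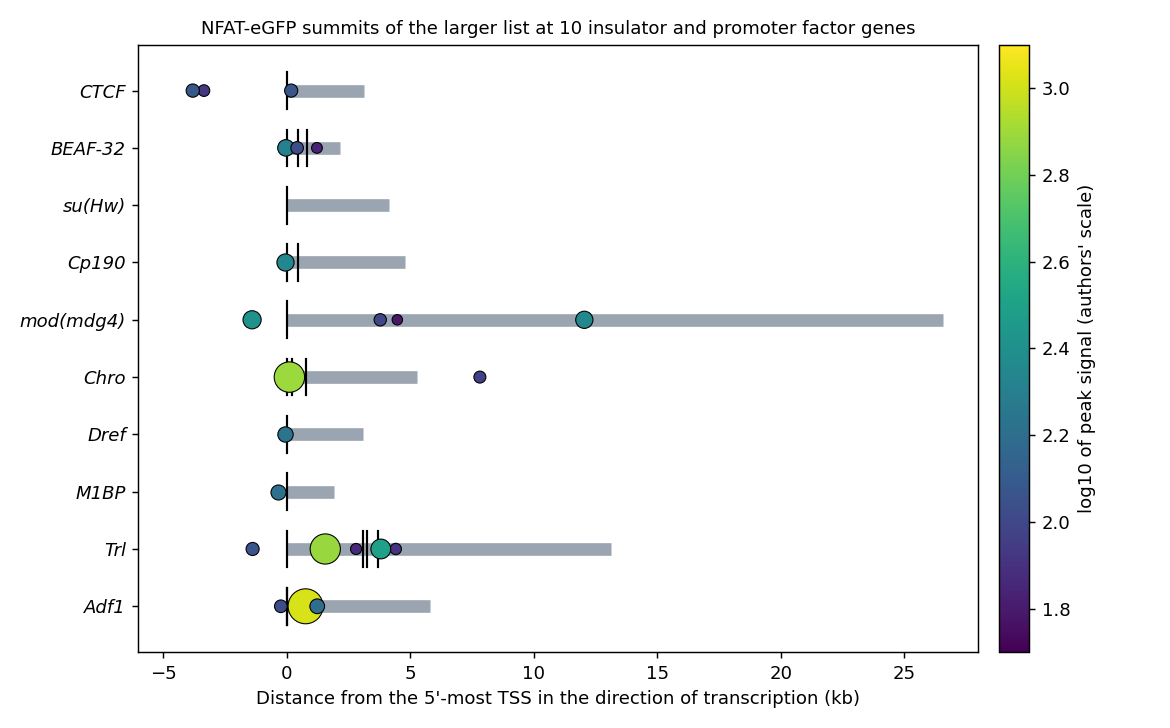
Summits of the larger list (circles) at each member gene (rows), by distance from the 5'-most TSS in kb (x axis), with gene bodies as grey bars and annotated TSSs as vertical ticks. Circle area and colour give the signal on the authors' scale, the colour as its log10. The 3 largest circles, at Adf1, Chro and Trl, lie within 2 kb of the 5'-most start, and su(Hw) has none.

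The promoter peaks of the members ranged widely in strength. Ordered by the strongest summit within 1 kb of an own TSS in the larger list, Adf1 had a signal of 1037, Chro 777, Trl 308, Cp190 225, BEAF-32 205, Dref 172, M1BP 164 and CTCF 118. Their median was 215 over 8 genes, against 114 over the 3709 protein-coding genes with such a peak. As percentiles of all peaks of the list, the members ran from 66.0 to 99.7 with a median of 88.1, against 64.0 over those genes. Within 500 bp of a TSS they ran from 60.0 to 99.3 with a median of 84.5, against 63.1 over genes with such a peak. Adf1 was then the lowest, since its summit of 1037 lay in an intron 761 bp from a TSS. A peak at or above the 75th percentile stood within 1 kb of a TSS at 7 of 10 members, against 9.7% of all genes, and one at or above the 90th at 3 members, against 3.92%. With replicate 2 alone the members' median percentile was 84.7, against 60.3 for genes with a peak, and with replicate 1 alone it was 75.3, against 57.5. For scale, the 3 strongest peaks of the larger list lay nearest to CG14100 with a signal of 2300, Ugalt with 2086 and CG11050 with 1669.

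**Figure D3:**
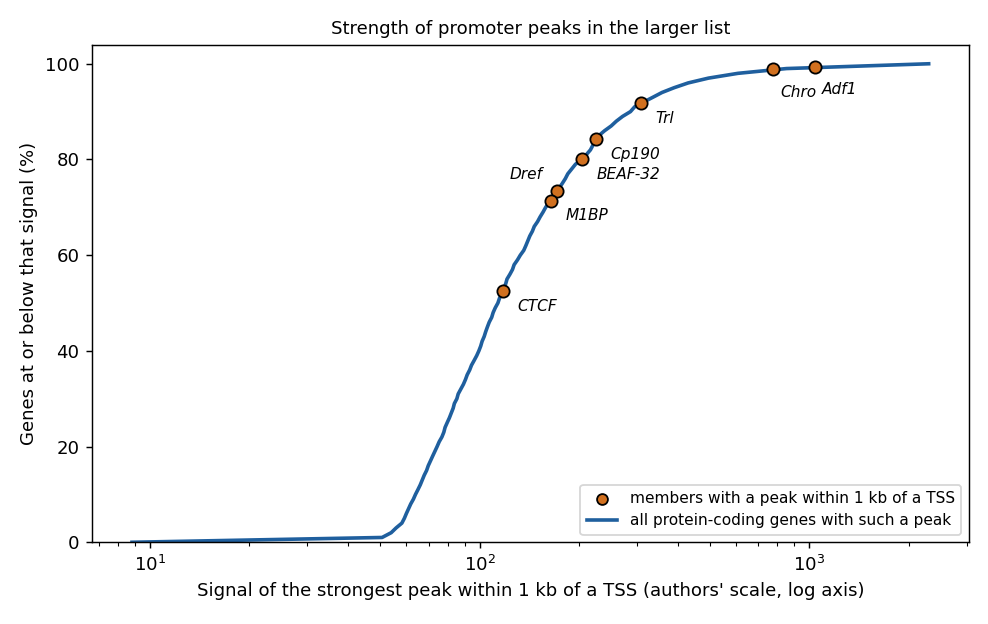
Signal of the strongest peak within 1 kb of a TSS in the larger list (x axis, authors' scale, log axis) against the percentage of genes at or below it (y axis), for the 8 members with such a peak (points) and all 3709 genes with one (line). CTCF sits near the middle of the line at 52.4%, while Chro at 98.8% and Adf1 at 99.4% are at its top.

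Among the factors that bind insulator DNA, CTCF, the zinc finger protein shared with vertebrates, lies at chr3L:7353578-7356713 on the minus strand with 1 TSS. Its promoter summit was in an intron, 183 bp downstream of the TSS, with a signal of 118 in the larger list, 41.9 in replicate 1 and 72.5 in replicate 2. It ranked 1664 of 4899 in the larger list, at percentile 66.0 of all peaks, and 1892 of 2236 in replicate 1, near the end of that list. Among the 3709 genes with a promoter peak, CTCF was near the middle, at 52.4%. The summit also lies within an annotated antisense RNA, and peaks carry no strand. The other CTCF summits belong by position to neighbours. One lay 3348 bp upstream, 55 bp inside pst, with a signal of 85.0 in the larger list and 47.9 in replicate 2, and it was not in the replicate 1 list. One lay 3800 bp upstream, 48 bp before Sec63, with a signal of 121 in the larger list, 54.1 in replicate 1 and 66.6 in replicate 2. The summit at the TSS of Sec63 was thus about as strong as the one inside CTCF.

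BEAF-32, the boundary element factor, lies at chr2R:14770469-14772630 on the plus strand with 3 TSSs, and all 3 of its summits were nearest to its own TSSs. The strongest lay 29 bp upstream of the 5'-most TSS, with a signal of 205 in the larger list, 87.4 in replicate 1 and 121 in replicate 2. An intronic summit 23 bp upstream of the middle TSS had a signal of 105 in the larger list and 77.6 in replicate 2. A weaker one, 394 bp downstream of the last TSS, had 68.0 in the larger list and 47.6 in replicate 2 and was not in the conservative list. Neither of the intronic summits was in the replicate 1 list, so the 5'-most promoter was the one held by every list. The summits at the 5'-most and middle TSSs also lie within an annotated antisense RNA. CGATA stood within 50 bp of both intronic summits and of none at the 5'-most TSS. Replicate 2 alone also had a summit 1668 bp upstream, 622 bp inside Spred, with a signal of 33.1.

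The gene of su(Hw), which binds the gypsy insulator, was the member with no peak in any thresholded list. It lies at chr3R:14304455-14308589 on the minus strand with 1 TSS, and the nearest summit of the larger list was 15151 bp from the gene. Among all 132548 ranked peaks for both replicates, 21 lay in or within 5 kb of the gene. The strongest of these had a signal of 38.5, rank 18530 and an IDR of 0.548, and the strongest within 1 kb of the TSS had a signal of 33.7 and an IDR of 0.372. The ranked peak with the highest signal in or within 5 kb of the gene had an IDR of 0.215 in replicate 1 and 0.762 in replicate 2. The highest IDR kept in the larger list was 0.00999, so these lay far outside it. With no read depth, this says that no peak passed the limit, and not that binding was absent.

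The cofactor genes differed from each other. Cp190, whose protein is shared by several insulator complexes, lies at chr3R:15270432-15275241 on the minus strand with 2 TSSs. Its 1 summit in the larger list was 78 bp upstream of the 5'-most TSS, with a signal of 225 in the larger list, 90.5 in replicate 1 and 125 in replicate 2. The position moved by 1 bp in replicate 1 and 0 bp in replicate 2. CG4338 starts in the opposite direction, and the summit lay 203 bp upstream of its TSS. Each replicate list also held a weak summit at the CG4338 TSS itself, with a signal of 4.53 in replicate 1, rank 2227 of 2236, and 21.8 in replicate 2, rank 3920 of 3994.

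The BTB protein gene mod(mdg4), known for joining exons from separate transcripts of both DNA strands, spans 26556 bp at chr3R:21350846-21377401 on the minus strand with 22 transcripts and 1 TSS. The annotation places 23 pre-mod(mdg4) genes, the separate precursor transcripts, inside this span. Its strongest summit lay 1399 bp upstream, 177 bp before tin, which encodes the heart regulator tinman, with a signal of 255 in the larger list, 98.4 in replicate 1 and 163 in replicate 2. An intronic summit 12048 bp into the gene had a signal of 226 in the larger list, 76.1 in replicate 1 and 139 in replicate 2. It lay 63 bp upstream of pre-mod(mdg4)-C, of -AB and of a start of -E, and within -E. It was also 256 bp upstream of pre-mod(mdg4)-U to -Y, -AD and -AE, which start in the other direction. The summits at tin and in this intron were strong peaks, ranked 413 and 515 of 4899, and neither was near the main TSS.

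A summit 3788 bp into mod(mdg4) had a signal of 99.1 in the larger list and 73.0 in replicate 2, and was not in the replicate 1 list. It lay 38 bp upstream of pre-mod(mdg4)-N, -O and -AA. The last, in a coding exon 4479 bp into the gene, had a signal of 61.0 in the larger list and was in neither replicate list nor the conservative one. A ranked peak past the end of the gene, 14 bp from the TSS of aus, had a signal of 61.4 and an IDR of 0.00507 and was still not in the larger list. The conservative list added a summit 11846 bp into the gene with a signal of 83.3. Thus 2 of the 4 larger-list summits stood within 100 bp upstream of a pre-mod(mdg4) TSS. At the main TSS the ranked peak with the highest signal, 61 bp downstream in the 5' UTR, had a signal of 42.1 and an IDR of 0.0729, past the limit of 0.01. Counting the pre-mod(mdg4) TSSs as its own, an alternative chosen after the data were seen, gives mod(mdg4) a promoter summit and brings the members to 9 of 10.

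Chro, the chromodomain partner of the kinase JIL-1, lies at chr3L:22873702-22878984 on the minus strand with 3 TSSs. Its promoter summit was in the 5' UTR, 111 bp downstream of the 5'-most TSS and 105 bp upstream of the middle one, with a signal of 777 in the larger list, 372 in replicate 1 and 399 in replicate 2. It ranked 36 of 4899 in the larger list, 27 of 2236 in replicate 1 and 51 of 3994 in replicate 2, so it stood near the top of each. The summit was also 216 bp upstream of Ssl1, which starts in the opposite direction. A weaker summit 2539 bp past the gene, 76 bp from the TSS of Arf1, had a signal of 91.8 in the larger list and 51.5 in replicate 1 and was not in the replicate 2 list. Replicate 2 alone had one 1535 bp past the gene with a signal of 44.2, 33 bp from the TSS of CG11109.

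Among the promoter factors, Dref, which activates replication and growth genes through the DRE, lies at chr2L:9964147-9967229 on the minus strand with 1 TSS. Its summit in the larger list was 66 bp upstream, with a signal of 172, and was closer to RpL13, a ribosomal protein gene that starts 18 bp away in the opposite direction. Replicate 1 placed it 12 bp downstream of the Dref TSS with a signal of 54.3, and replicate 2 placed it 58 bp upstream with 130. The replicates thus set the summit on either side of the Dref start. Replicate 2 alone had a further summit in a coding exon, 2578 bp into the gene, with a signal of 40.0.

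M1BP, the motif 1 binding protein of housekeeping promoters, lies at chr3R:8729790-8731698 on the minus strand with 1 TSS. Its summit was 365 bp upstream, 28 bp from the TSS of CG8202, which starts in the opposite direction, with a signal of 164 in the larger list, 75.4 in replicate 1 and 98.7 in replicate 2. By position it was a CG8202 promoter peak in all 3 lists. Replicate 1 alone had a summit 30 bp upstream of M1BP itself, with a signal of 46.1.

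Trl, which encodes the GAGA factor, lies at chr3L:14747929-14761049 on the minus strand with 4 TSSs and 10 transcripts, and carried the most summits. The strongest was intronic, 1563 bp downstream of the 5'-most TSS and 1524 bp upstream of the nearest own TSS, with a signal of 765 in the larger list, 265 in replicate 1 and 498 in replicate 2. It ranked 37 of 4899, 1 place below the Chro promoter, and no other protein-coding gene had a TSS within 1 kb. A summit in the 5' UTR, 97 bp downstream of the last TSS, had a signal of 308 in the larger list, 116 in replicate 1 and 196 in replicate 2. Both were in every list.

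The other Trl summits were weaker. An intronic summit 703 bp past the last TSS had a signal of 79.2 in the larger list and 62.7 in replicate 2, and was not in the replicate 1 list. An intronic summit 278 bp upstream of an internal TSS, which is also a start of the nested gene CG42507, had 73.5 in the larger list and 26.5 in replicate 1, and was not in the replicate 2 list. This was the only one of the 23 summits with GAGAG within 50 bp. A summit 1378 bp upstream of the gene, 399 bp inside Mgat4a, had 116 in the larger list, 42.8 in replicate 1 and 76.6 in replicate 2. Replicate 2 alone had intronic summits with signals of 79.0 and 35.0.

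Adf1, a MADF-domain activator first found at the Adh gene, lies at chr2R:6662265-6668085 on the plus strand with 2 TSSs 5 bp apart. Its intronic summit 761 bp downstream had the strongest signal of all members, 1037 in the larger list, 484 in replicate 1 and 575 in replicate 2. It ranked 17 of 4899, 13 of 2236 and 20 of 3994 in those lists. An intronic summit 1232 bp downstream, within an annotated long noncoding RNA, had 156 in the larger list, 71.9 in replicate 1 and 102 in replicate 2. A summit 236 bp upstream, 44 bp from the TSS of Dpit47, had 106 in the larger list and 52.9 in replicate 1 and was not in the replicate 2 list. That upstream summit had TATCGATA centred 18.5 bp, the CTCF core AGGTGGCGC 16 bp and GGAAA 26 bp from it. The strongest summit held none of the searched motifs within 50 bp.

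Some of these promoter summits also lay near TSSs of neighbouring genes. The strongest promoter summit of 6 of the 8 members with one, all but CTCF and BEAF-32, also lay within 1 kb of a TSS of another protein-coding gene, against 60.7% of all genes with a promoter peak. With 8 genes, this count sets the members apart in no way that was tested. For Adf1 and Trl the other TSS was 913 bp and 723 bp from the summit, and for Cp190, Chro, Dref and M1BP at most 216 bp. Counting a summit only for the gene with the nearest TSS, an alternative added after the data were seen, left 6 of 10 members, against 19.3% of all genes, and set aside Dref and M1BP. Which gene a shared peak acts on cannot be told apart from these lists.

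Most summits were found in each replicate separately. Of the 23, 21 overlapped a peak of the conservative list, against 74.7% of all peaks of the larger list, and 14 overlapped a thresholded peak of both replicates, against 39.8%. The replicate 1 list held 17, against 44.2% of all peaks, and the replicate 2 list held 19, against 73.3%. There were 3 in replicate 1 alone, against 4.43% of all peaks, 5 in replicate 2 alone, against 33.5%, and 1 in neither, against 22.3%. The much longer unthresholded rankings held a peak at all 23 in both replicates, against 94.5% of all peaks. Summits shifted by a median of 12 bp in replicate 1 and 5 bp in replicate 2, with the farthest 94 bp and 36 bp. The larger list was made from these same replicates, so the overlaps are not independent of it.

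**Figure D4:**
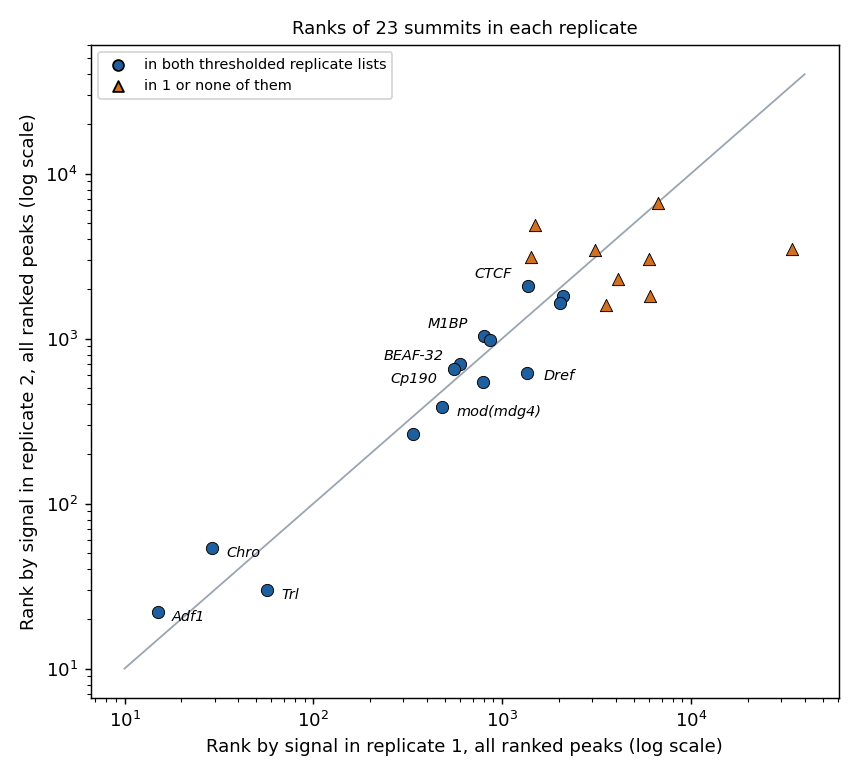
Rank by signal of the 23 summits in all ranked peaks of replicate 1 (x axis, log scale) and replicate 2 (y axis, log scale), where rank 1 is the strongest and the line marks equal ranks. Circles are in both thresholded replicate lists and triangles in 1 or none, and the strongest summit of each gene is named. Adf1, Chro and Trl stand apart at ranks 15 to 57, and the triangles lie towards the weaker ranks.

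Some members' promoter summits held letters known to be bound by the protein that the gene encodes. Of the 13 summits within 1 kb of a member TSS, 9 belonged to genes whose protein has a motif in the search. For Dref and BEAF-32, both TATCGATA and CGATA were counted. An own motif lay within 50 bp at 3 of these 9, and at 5 within 100 bp or over the whole peak. In the conservative list it was at 2. The 3 were weaker summits of BEAF-32 and Trl, each absent from 1 replicate list. The strongest promoter summits of these genes, with signals of 205 and 308, had no own motif within 50 bp. For BEAF-32, 2 of the 3 summits had CGATA within 50 bp, against 20.7% of all peaks. For Trl, 1 of the 3 promoter summits had GAGAG, against 14.1%. Among 2753 promoter peaks, set by a 500 bp limit, these shares were 28.3% and 14.5%. Within 100 bp, CGATA lay at 32.4% and GAGAG at 28.2% of all peaks, and over the whole peak at 37.2% and 34.2%. The wider count includes the Dref summit for CGATA at 51 bp, and no TATCGATA lay within 100 bp of it. Over all 23, TATCGATA was at 2, CGATA at 6, GAGAG at 1 and AGGTGGCGC at 1, against 0.959% of all peaks for the last. The M1BP element GGTCACACT and the su(Hw) core TGCATA were at 0, against 1.31% and 6.55% of all peaks. GGAAA was at 9 of 23, against 26.4%, and TGGAAA at 5, against 11.1%. CACTG, chosen from earlier results of these data, was at 6, against 30%. Base composition was close, with 45.1% G and C in the member windows and 43.2% over all peaks.

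Of 34 other genes of insulation, cohesin and promoter control, 33 were matched, 1 of them by synonym, and 15 had a summit within 1 kb of a TSS in the larger list, against the 26.6% given above for all genes. The conservative list held 12 of the 33, against 22.7% of all genes, replicate 1 held 9, against 15%, and replicate 2 held 14, against 24.2%. The strongest were JIL-1, the interband histone kinase, with a signal of 268 at 10 bp upstream, Trf2, a TBP-related core promoter factor, with 211 at 758 bp downstream, fs(1)h, the fly BET protein, with 189 at 160 bp upstream, and shep, an RNA-binding protein that limits gypsy insulator activity, with 151 at 188 bp upstream. All 4 were in both replicate lists. JIL-1 and its partner Chro both had strong promoter peaks, and a link between the 2 peaks was not tested. The other 18 had no summit there. They were dwg, pita, ZIPIC, Ibf1, Ibf2, Elba1, Elba2, Elba3, insv, HIPP1, Clamp, pho, Opbp, E(bx), Nipped-B, vtd, SMC1 and SMC3.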

How the data were processed

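NFAT-eGFP ChIP-seq of 2 biological replicates was used as 7 peak lists on the dm6 assembly, as the deposited descriptions name them: ranked and IDR-thresholded lists for each replicate and for both together, with a conservative thresholded version. The aligner and peak caller were not given in the sources used here. Chromatin was sonicated to a size range of 200 to 800, per the labels. Column 7 of the deposited lists is the authors' signal per peak, on a scale that is not given. Column 9 of the deposited lists is the −log10 of a q-value, used to rank peaks as an alternative, and column 12 of the deposited ranked lists is the −log10 of a global IDR. Read depth is unknown, so no counting interval is given.

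The summit is the peak start plus the deposited summit offset. Genes and TSSs came from Ensembl release 115 (BDGP 6.54) and sequence from RefSeq Release 6, in which 99.9% of 16237 annotated start codons read ATG. Distances are from the nearest annotated TSS of the gene, negative or upstream against transcription. Replicate overlap needed 1 bp. Motif letters were looked for on either strand of the 101 bp around each summit, and of 201 bp and the whole peak as alternatives. The members and lists were chosen with earlier results of these data known. All 10 members are named, with the 4 strongest related genes and those without a promoter summit. Neighbours with a TSS nearer to a promoter summit or within 1 kb of it are also named, and the 3 strongest peaks. With 1 group there is no test between conditions. Steps were tested on simulated data. Python 3.11.15, NumPy 2.4.6, pandas 2.3.3 and matplotlib 3.10.9 were used.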

Additional observations from a re-analysis of the deposited data

How the results depend on the processing

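Of 32 alternative values over 6 results, 27 stayed within 1.5 times the reported count or within the spread of the replicates. The members with a summit in or near the gene were 9 in every list and 6 in gene bodies alone, and those within 1 kb of a TSS were 6 to 9 over all windows, lists and TSS sets tried. The number of summits fell to 13 of 23 with gene bodies alone, since the flanks are then left out. Leaving out 1 replicate gave 9 to 14 related genes with a promoter summit, and 19 to 25 summits at the members. It gave a median percentile of promoter signal of 75.3 to 84.7, lowest without replicate 2, whose list is the longer one, and the cause was not tested. Own-factor motifs, with CGATA also counted for Dref, were at 5 promoter summits within 100 bp of the summit. They were at 5 over the whole peak, since more sequence is then searched. No paired analysis was possible because there is 1 group. Depth, a control and expression of the members are not analysed here, so the lists say which peaks passed and not how much protein was bound.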
